A study of Mus musculus with 19 samples.

Results

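The collagen genes of the mouse heart were examined in 19 bulk RNA sequencing libraries. They were taken by name, as each row of the count table whose symbol is Col, a number, the letter a and a number. That gave 44 genes of the 25239 symbols in the table, grouped as 11 fibrillar, 6 basement membrane and 27 other collagens. The libraries were made to ask what MCM8, a helicase of DNA repair that the series also links to removal of mitochondria, does for blood vessels in a mouse model of Kawasaki disease. In that model an injection of LCWE, the Lactobacillus casei cell wall extract, inflames the coronary arteries, and PBS is the vehicle. Mcm8 knockout hearts gave 5 libraries after LCWE and 3 after PBS, and wild-type hearts gave 6 after LCWE and 5 after PBS. All samples are labelled as heart tissue. The labels do not state the strain, age, LCWE dose, time after LCWE or type of knockout allele. They also do not say whether each library is its own animal, and the p-values therefore cover the library-to-library spread alone, which may be technical.

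Collagens are proteins whose chains wind around each other as a helix of several strands. Most are secreted, and some span the cell membrane. Fibrillar collagens assemble into the fibres that give a tissue its tensile strength. Type IV collagens form the sheet-like network of basement membranes under endothelium and around heart muscle cells. Many of the remaining types link, anchor or decorate those structures. In the heart most fibrillar collagen comes from fibroblasts, while endothelial and mural cells also make type IV collagen.

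Total counts per library lay between 11853233 and 16145911. Levels are given in CPM, reads counted for a gene relative to the TMM-scaled total of its library. Mcm8 itself lay at 0.130 to 0.749 CPM in knockout LCWE and 0.617 to 0.910 CPM in knockout PBS hearts, against 2.60 to 5.19 CPM in wild-type LCWE and 2.84 to 4.54 CPM in wild-type PBS hearts, so each knockout library lay below each wild-type library. The heart muscle myosin gene Myh6 lay between 37080 and 61450 CPM in all 19 libraries. Libraries with sample numbers from 100 to under 150 in their labels, which are 3 knockout LCWE, 1 knockout PBS, 3 wild-type LCWE and 3 wild-type PBS libraries, had higher fibrillar collagen levels than the other libraries of their group, except in knockout PBS. What the number stands for is not stated, and the range was chosen after the levels were seen. In addition, replicates 1 and 3 of the knockout PBS group stood apart. Of the 35 collagens that passed the filter on low counts, 11 were lower in both of these libraries than in each of the other 17 libraries, namely Col1a1, Col1a2, Col3a1, Col5a1, Col6a1, Col6a2, Col6a3, Col6a6, Col14a1, Col15a1 and Col16a1, and 2 were higher in both, Col11a2 and Col28a1. Every comparison with knockout PBS rests on 3 libraries of which these are 2. Both were picked from their collagen levels, and the share of all genes set apart in both was not computed. The counts of 11 and 2 are therefore not shown to be particular to collagens.

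The 8 fibrillar, 6 basement membrane and 21 other collagens that passed the filter were tested. The 9 that did not pass, Col2a1, Col11a1, Col24a1, Col6a4, Col6a5, Col9a1, Col10a1, Col17a1 and Col19a1, reached 1 to 7 counts in their highest library and are not compared. Several of these are known chiefly from cartilage or epithelium. Collagen transcripts made up between 0.194% and 0.575% of all counts of a library.

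Set on a common scale of CPM per kilobase of merged exon, averaged over the 19 libraries, the basement membrane pair Col4a1 and Col4a2 had the highest levels, 124.3 and 116.2. Col6a1, a chain of the beaded filaments of type VI collagen, followed at 45.5, and Col3a1, the type III chain abundant in vessel walls and heart interstitium, at 41.5. Neighbours in this order changed place between groups: Col3a1 had 52.5 and Col6a1 51.5 in knockout LCWE hearts, and Col15a1 31.3 and Col1a1 28.8 in wild-type PBS hearts. Col1a1 of type I collagen had 28.6, Col15a1 27.6, Col6a2 22.7 and Col1a2 15.1 CPM per kilobase. On this scale the chains of a type did not always lie at the same level, but the scale depends on the merged exon length. Col1a1 and Col1a2 had 187.9 and 187.7 CPM, and differed as above through lengths of 6.563 and 12.426 kilobases. Likewise Col6a1 and Col6a2 had 199.1 and 189.3 CPM, with lengths of 4.38 and 8.326 kilobases. Col4a1 and Col4a2 lay close to each other.

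**Figure D1:**
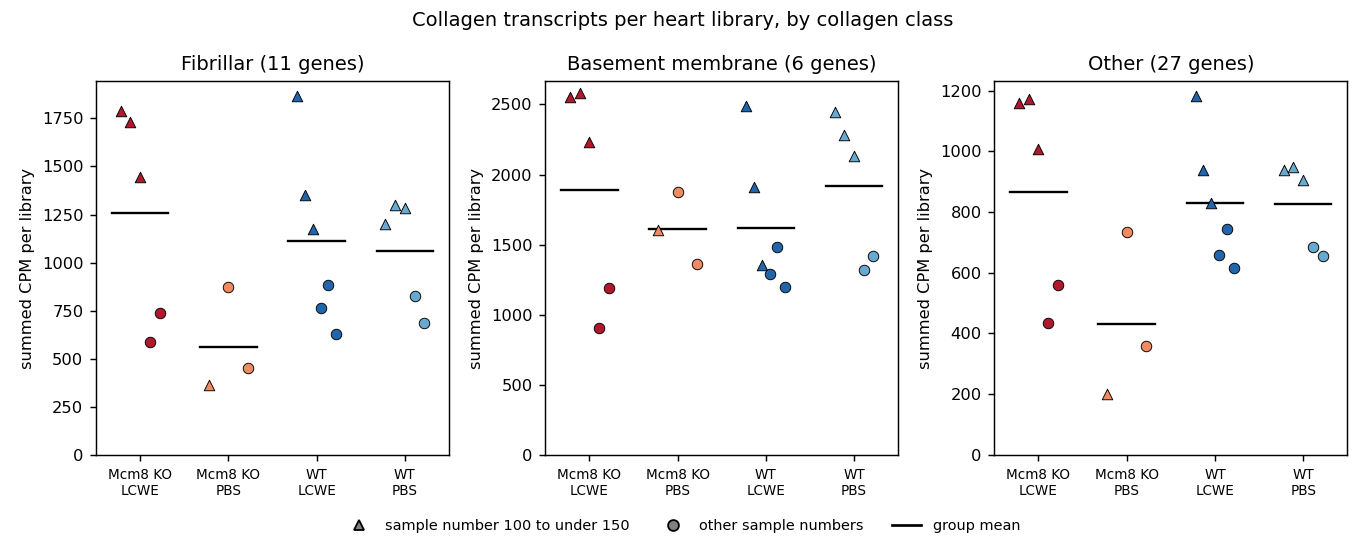
Summed CPM of the collagens of each class in each library, with knockout LCWE, knockout PBS, wild-type LCWE and wild-type PBS hearts from left to right, lines at group means and triangles for sample numbers from 100 to under 150. The fibrillar sums of knockout PBS replicates 1 and 3, at 362 and 450.1, lie below those of all other libraries, and triangles lie above circles in each class of the knockout LCWE and wild-type PBS groups.

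The summed fibrillar level was 1786, 1732, 1447, 589.7 and 740.2 CPM in the 5 knockout LCWE hearts, against 362, 875 and 450.1 CPM in the 3 knockout PBS hearts. In wild-type LCWE hearts it ran from 630.1 to 1869 CPM, and in wild-type PBS hearts from 684 to 1302 CPM. Except in knockout PBS, each group fell into a high set of libraries, numbered from 100 to under 150, and a low set with other numbers. Within that number range the sum was 1447 to 1786 CPM in knockout LCWE, 362 CPM in the knockout PBS library, 1177 to 1869 CPM in wild-type LCWE and 1198 to 1302 CPM in wild-type PBS hearts. Outside it the sum was 589.7 to 740.2, 450.1 to 875, 630.1 to 881 and 684 to 825 CPM in the same groups. The high and low sets did not overlap within the knockout LCWE, wild-type LCWE and wild-type PBS groups, whereas knockout LCWE and wild-type LCWE hearts overlapped within each set. Because the range was chosen after the levels were seen, this separation is not a test of it. In bulk tissue, fewer cells of a type and less RNA per cell cannot be told apart.

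LCWE in knockout hearts gave 3 called collagens among the 35 tested, by edgeR's quasi-likelihood test at an adjusted p under 0.05 over 14301 genes. Col6a6 rose, and Col11a2 and Col28a1 fell. Of all tested genes 2.90% were called, 0.818% as higher and 2.08% as lower. The median log2 fold change was 0.45 for the collagens and 0.01 for all genes, with 26 collagens above 0 and 9 below. At an unadjusted p under 0.05, 14 collagens passed, 40% of those tested, against 23.4% of all genes. DESeq2 called 12 collagens, 9 higher and 3 lower, and 8.59% of all genes. With only the knockout groups in the fit, edgeR called 0 of 32 collagens and 0 of 13839 genes. The 3 calls thus depended on a spread estimated with the wild-type libraries included. With knockout PBS replicates 1 and 3 left out, a choice made from their collagen levels, that group is a single library assumed to vary like the others, and edgeR then called 0 of 35 collagens and 1 of 14890 genes.

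Among the fibrillar collagens, 7 of 8 had a positive fold in that comparison, with a class median of 0.69 on the log2 scale, yet only the eighth, Col11a2, passed the test. Col3a1 stood at 790.5, 744, 623, 164 and 253 CPM in knockout LCWE hearts, against 43.7, 318 and 79.6 CPM in knockout PBS hearts. The groups overlapped, because knockout PBS replicate 2 lay above knockout LCWE replicates 4 and 5. The log2 fold change was 1.81 ± 0.67 (SE), with an adjusted p of 0.121 in edgeR. In wild-type LCWE hearts Col3a1 had a lowest, median and highest level of 198, 426 and 801 CPM, and in wild-type PBS hearts 469, 524, 539, 297 and 213 CPM. Those groups overlapped throughout.

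Type I collagen, the stiff fibre of scars, tendon and heart interstitium, had the same order. Col1a1 stood at 304, 328, 239, 116.9 and 140.4 CPM in knockout LCWE hearts, against 60.8, 146 and 86.9 CPM in knockout PBS hearts. Its log2 fold change was 1.21 ± 0.40, with an adjusted p of 0.0873 in edgeR. Again only knockout PBS replicate 2 reached the range of the LCWE group. Its partner Col1a2 stood at 317, 301, 238, 159 and 147 CPM in knockout LCWE hearts, against 109.5, 168 and 93.5 CPM in knockout PBS hearts, with a fold of 0.91 ± 0.33 and an adjusted p of 0.105 in edgeR. Col5a1, a type V chain that sets where and how thick fibrils form, stood at 156.1, 142, 144, 57.4 and 75.2 CPM in knockout LCWE hearts, against 37.8, 73.9 and 51.5 CPM in knockout PBS hearts. Its fold was 1.08 ± 0.38, with an adjusted p of 0.0985 in edgeR. None of these 4 genes passed the threshold in edgeR, while DESeq2 called all of them higher, with adjusted p from 0.0196 to 0.0441. In each, the lowest knockout LCWE libraries were replicates 4 and 5.

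**Figure D2:**
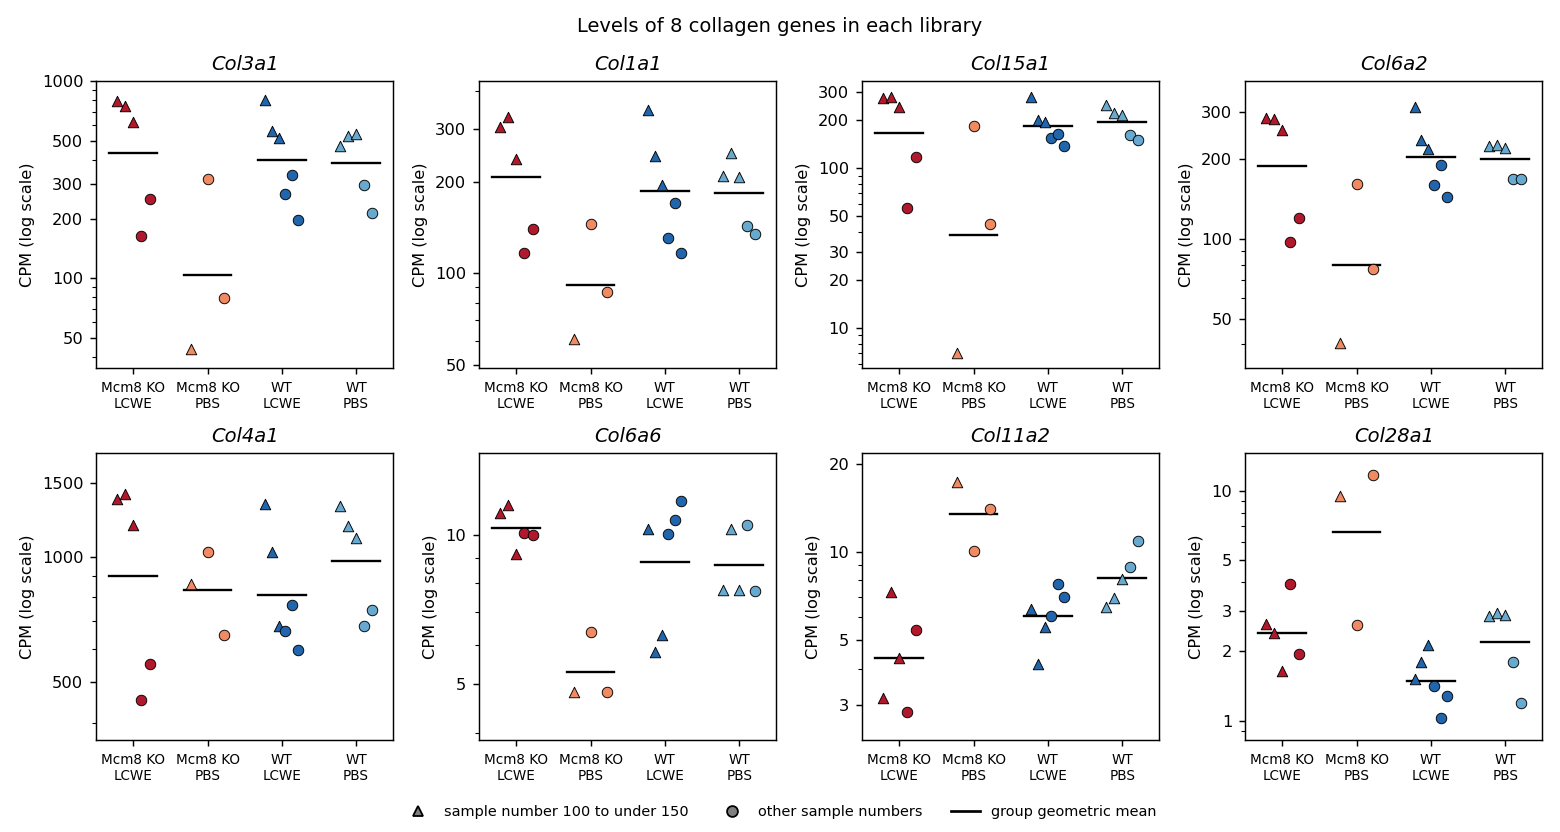
CPM on a log axis of 8 collagen genes in each library, with the 4 groups in the order knockout LCWE, knockout PBS, wild-type LCWE and wild-type PBS, lines at geometric means and triangles for sample numbers from 100 to under 150. Col3a1, Col1a1, Col15a1 and Col6a2 are lowest in knockout PBS replicates 1 and 3, and Col11a2 is higher in the 3 knockout PBS libraries than in the 5 knockout LCWE libraries.

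Col11a2, a type XI chain best known from the fibrils of cartilage, lies on chr17:34039437-34066685 (GRCm38, plus strand). It went the other way from the abundant fibrillar collagens. Its level was 3.17, 7.27, 4.35, 2.85 and 5.40 CPM in knockout LCWE hearts, against 17.4, 10.1 and 14.0 CPM in knockout PBS hearts. The groups did not overlap. Col11a2 fell by 1.58 on the log2 scale (SE 0.26), with an adjusted p of 0.0116 in edgeR. Of all genes, 8.61% had groups that did not overlap in this comparison. In wild-type hearts Col11a2 had a lowest, median and highest level of 4.15, 6.21 and 7.79 CPM after LCWE, against 6.51, 6.98, 8.06, 8.87 and 10.9 CPM after PBS, which overlapped. Within sample numbers from 100 to under 150 the knockout fold was -1.82, with 1 knockout PBS library, and outside it -1.54, where the adjusted p was 0.0669 in edgeR. Without knockout PBS replicate 1 the fold was -1.38 and not called, at an adjusted p of 0.143. Of the 10 cartilage markers listed, 4 were tested and 0 called, beside 2.90% of all genes. Matn3 had 0 counts in all 19 libraries. The summed level of the list was 5.62 to 20.4 CPM in knockout LCWE and 6.09 to 10.4 CPM in knockout PBS hearts.

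Col28a1, a collagen found in mice mainly around peripheral nerve, lies on chr6:7997808-8192617 (GRCm38, minus strand). It stood at 2.63, 2.40, 1.65, 3.93 and 1.95 CPM in knockout LCWE hearts, against 9.45, 2.61 and 11.7 CPM in knockout PBS hearts. The difference was made by knockout PBS replicates 1 and 3, since replicate 2 lay inside the LCWE range. Col28a1 fell by 1.65 on the log2 scale (SE 0.38), with an adjusted p of 0.0338 in edgeR. Against replicate 2 as the single knockout PBS library the fold was -0.05. The call was lost without knockout PBS replicate 1 (fold -1.50, adjusted p 0.243) or 3 (fold -1.26, adjusted p 0.132), and without knockout LCWE replicates 1, 3 or 5, with adjusted p from 0.0624 to 0.0706 in edgeR. Within sample numbers from 100 to under 150 it was -2.09 (1 knockout PBS library) and outside them -1.27 at an adjusted p of 0.364 in edgeR. Of 8 Schwann cell markers 6 were tested and 0 called, beside 2.90% of all genes. Their sums were 28.6 to 33.0 CPM in knockout LCWE and 20.7 to 27.4 CPM in knockout PBS hearts. Pmp2 had 0 counts in 13 libraries, and the part of Schwann cells in the Col28a1 levels was not tested.

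Col6a6, a type VI chain that can stand in for the chain from Col6a3, lies on chr9:105687809-105828160 (GRCm38, minus strand). Its level was 11.1, 11.5, 9.14, 10.1 and 10.02 CPM in knockout LCWE hearts, against 4.83, 6.38 and 4.82 CPM in knockout PBS hearts. All 5 LCWE libraries lay above all 3 PBS libraries, and replicates 4 and 5, which were low for the abundant collagens, were not low here. Groups without overlap were found for 8.61% of all genes in this comparison, and for Col6a6 and Col11a2 among the 35 tested collagens. Col6a6 rose by 0.95 ± 0.22 on the log2 scale, with an adjusted p of 0.0336 in edgeR. Wild-type LCWE hearts had a lowest, median and highest level of 5.82, 10.2 and 11.7 CPM, and wild-type PBS hearts 7.76, 10.3, 7.75, 10.48 and 7.72 CPM. Within sample numbers from 100 to under 150 the knockout fold was 1.12, with 1 knockout PBS library, and outside them 0.85 at an adjusted p of 0.112 in edgeR. The call was lost without knockout PBS replicate 1 (fold 0.89, adjusted p 0.243) or 3 (fold 0.89, adjusted p 0.102), and without knockout LCWE replicates 1, 3 or 5, with adjusted p from 0.0614 to 0.0670.

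The promoters of the 3 called collagens are shown because these were the only members to pass the test. They are RefSeq windows of 300 bases on GRCm38.p6, from 250 bases before to 50 after the start that RefSeq annotates, read along the strand of the gene. For Col11a2 (34039138) and Col6a6 (105828085) that start differs from the outer end of the GENCODE gene given above. Capitals mark the GC box core GGGCGG or its reverse complement CCGCCC, the motif bound by Sp family factors.
Col11a2: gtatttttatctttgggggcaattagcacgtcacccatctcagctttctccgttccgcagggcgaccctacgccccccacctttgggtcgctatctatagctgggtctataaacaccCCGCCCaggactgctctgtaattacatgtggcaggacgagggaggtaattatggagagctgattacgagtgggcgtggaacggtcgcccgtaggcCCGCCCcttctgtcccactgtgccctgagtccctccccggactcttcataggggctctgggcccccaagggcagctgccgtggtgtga
Col28a1: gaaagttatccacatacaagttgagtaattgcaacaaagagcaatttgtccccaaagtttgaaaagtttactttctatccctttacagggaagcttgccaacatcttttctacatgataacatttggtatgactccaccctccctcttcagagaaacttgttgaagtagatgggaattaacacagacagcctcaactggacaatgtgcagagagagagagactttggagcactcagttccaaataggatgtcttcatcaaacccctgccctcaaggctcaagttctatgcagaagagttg
Col6a6: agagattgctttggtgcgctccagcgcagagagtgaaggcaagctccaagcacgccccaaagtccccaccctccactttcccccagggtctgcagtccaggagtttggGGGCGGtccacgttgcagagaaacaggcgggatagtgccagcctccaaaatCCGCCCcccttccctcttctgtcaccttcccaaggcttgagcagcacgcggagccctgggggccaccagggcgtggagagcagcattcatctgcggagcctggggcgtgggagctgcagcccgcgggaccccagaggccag
The windows are chr17:34038888-34039187 on the plus strand for Col11a2, chr6:8192568-8192867 on the minus strand for Col28a1 and chr9:105828036-105828335 on the minus strand for Col6a6. Col11a2 held 2 matches, Col6a6 2 and Col28a1 0. The motif stood in 23 of 38 windows of collagen genes (60.5%) and in 35.7% of the 32851 windows of all genes, so the called genes were found with and without it.

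For the basement membrane collagens LCWE gave, in knockout hearts, a class median of 0.19 on the log2 scale, with 5 of 6 members above 0. The edgeR test called 0 of them, beside 2.9% of all genes. It gave 1 an unadjusted p under 0.05, beside 23.4% of all genes. None of the 12 collagens that DESeq2 called belonged to this class. Col4a1 stood at 1372, 1414, 1191, 454 and 553 CPM in knockout LCWE hearts, against 859, 1024 and 651 CPM in knockout PBS hearts. Here the PBS libraries lay between the high and the low LCWE libraries, and the fold of 0.24 ± 0.35 had an adjusted p of 0.721 in edgeR. Col4a2 stood at 1087, 1086, 958, 400.4 and 563 CPM in knockout LCWE hearts, against 666, 785 and 641 CPM in knockout PBS hearts, with a fold of 0.23 ± 0.30. The sign of the Col4a1 fold depended on the libraries: it was 0.62 within sample numbers from 100 to under 150, -0.73 outside them and -0.12 with that range as a covariate, and none of these was called. Col4a5, an X-linked chain known from the kidney filter and other basement membranes, had 58.1 ± 10.2 CPM in knockout LCWE and 52.4 ± 7.53 CPM in knockout PBS hearts (SD, n = 5 and 3). Col4a4, its partner there, had 9.14 ± 2.97 and 9.67 ± 2.49 CPM in those groups.

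In wild-type hearts all 6 basement membrane collagens had folds below 0 after LCWE, from -0.39 to -0.10, and none passed the test. Col4a1 had a lowest, median and highest level of 597, 724 and 1334 CPM in wild-type LCWE hearts, against 1318, 1181, 1110, 684 and 747 CPM in wild-type PBS hearts, which overlapped. The summed basement membrane level was 1351 to 2487 CPM in wild-type LCWE and 2132 to 2448 CPM in wild-type PBS hearts within sample numbers from 100 to under 150. Outside that range it was 1196 to 1484 CPM in wild-type LCWE and 1318 to 1419 CPM in wild-type PBS hearts, so the groups overlapped in both.

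Col4a1 and Col4a2 lie head to head on chromosome 8, Col4a1 at chr8:11198423-11312826 on the minus strand and Col4a2 at chr8:11312805-11449287 on the plus strand, with annotated starts 21 bases apart. Their RefSeq promoter windows on GRCm38.p6 share 78 bases, shown in capitals, and are given because the levels of the genes followed each other across libraries.
Col4a1: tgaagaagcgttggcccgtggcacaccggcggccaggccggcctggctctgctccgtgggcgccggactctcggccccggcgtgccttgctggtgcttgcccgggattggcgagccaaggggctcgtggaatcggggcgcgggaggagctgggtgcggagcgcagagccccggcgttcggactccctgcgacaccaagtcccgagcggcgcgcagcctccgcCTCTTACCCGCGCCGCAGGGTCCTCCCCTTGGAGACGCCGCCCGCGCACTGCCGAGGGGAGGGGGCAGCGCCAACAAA
Col4a2: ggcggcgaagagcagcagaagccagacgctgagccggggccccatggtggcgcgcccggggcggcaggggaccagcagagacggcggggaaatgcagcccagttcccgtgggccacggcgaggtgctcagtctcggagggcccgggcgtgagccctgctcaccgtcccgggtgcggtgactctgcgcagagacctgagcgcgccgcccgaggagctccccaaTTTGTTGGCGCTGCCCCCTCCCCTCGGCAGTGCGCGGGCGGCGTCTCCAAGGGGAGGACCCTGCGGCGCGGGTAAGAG
The windows are chr8:11312777-11313076 on the minus strand for Col4a1 and chr8:11312555-11312854 on the plus strand for Col4a2, each 5′ to 3′ along its own gene, so the shared stretch chr8:11312777-11312854 appears as reverse complements. The annotated exons of the genes share 22 bases. Whether counting used strand is not given in the sources used here.

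Among chains that assemble into a common protein, levels moved together across the 19 libraries after each group's mean had been removed. The 6 pairs known to form trimers were computed on log2 CPM, with permutation p-values adjusted over the 6. The points share library composition and scaling. No pair of collagens from different trimers was computed. Whether partners followed each other more closely than other collagens was therefore not tested. Col4a1 and Col4a2 had a Pearson r of 0.984 and a Spearman rho of 0.981, with a permutation p of 1e-05, the smallest that the permutations could give. Without the 2 libraries farthest from the median, r was 0.982. Col6a1 and Col6a2 had an r of 0.974 and a rho of 0.993, and Col1a1 and Col1a2 an r of 0.936 and a rho of 0.905. Col5a1 with Col5a2 gave 0.915 and 0.846, Col4a3 with Col4a4 0.887 and 0.888, and Col6a1 with Col6a3 0.833 and 0.935 as r and rho.

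Each r in these other 5 pairs also had an adjusted permutation p of 1e-05, each rho an adjusted p of 1.2e-05 or 5e-05, and r without the 2 farthest libraries ran from 0.828 to 0.969. Within sample numbers from 100 to under 150 (n = 10) r lay between 0.930 and 0.993 over the 6 pairs, and outside them (n = 9) between 0.668 and 0.984. Col5a1 with Col5a2 outside the range, at 0.668, had an adjusted permutation p of 0.0572 and did not pass.

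**Figure D3:**
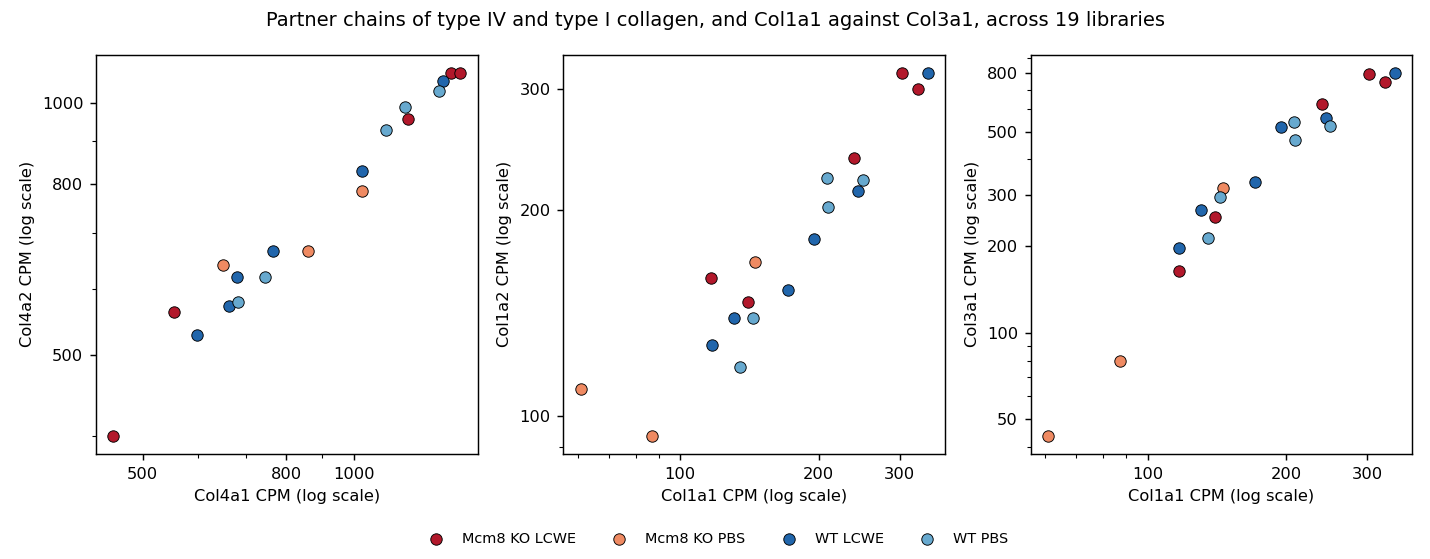
CPM on log axes of Col4a2 against Col4a1, Col1a2 against Col1a1 and Col3a1 against Col1a1, with 1 point for each of the 19 libraries coloured by group. The points of Col4a1 and Col4a2 lie along a line from 454 to 1414 CPM of Col4a1, and knockout PBS replicates 1 and 3 lie at the low end for Col1a1 and Col3a1.

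The balance of type I to type III collagen was taken as the log2 ratio of Col1a1 to Col3a1 counts, which needs no scaling between libraries. It averaged -1.06 ± 0.39 in knockout LCWE hearts and -0.17 ± 0.84 in knockout PBS hearts (SD, n = 5 and 3). The difference of -0.88 had an exact two-sided permutation p of 0.0893 (0.179 adjusted over the 4 comparisons), where the smallest p this design allows is 0.0179. As plain ratios, knockout PBS replicates 1 and 3 had 1.39 and 1.09, replicate 2 had 0.458, and the other 16 libraries ran from 0.378 to 0.713. In wild-type hearts the mean was -1.09 ± 0.23 after LCWE and -1.06 ± 0.26 after PBS (n = 6 and 5), a difference of -0.03 with an exact permutation p of 0.827. Knockout PBS exceeded wild-type PBS hearts by 0.89 with an exact permutation p of 0.0714 (0.179 adjusted).

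The other collagens include those that form filaments, fibril coats and basement membrane links, and some that span the cell membrane. In knockout hearts LCWE gave 1 higher and 1 lower call among 21 tested, beside 0.818% of all genes called higher and 2.08% lower. Of these collagens 14 had folds above 0, and their median was 0.46 on the log2 scale, against 0.01 for all genes. Col6a1 stood at 293, 298, 261, 128 and 148 CPM in knockout LCWE hearts, against 69.6, 170.1 and 103 CPM in knockout PBS hearts, with a fold of 0.98 ± 0.32 and an adjusted p of 0.0851 in edgeR. Col6a2 stood at 287, 283, 257, 97.0 and 119.6 CPM in knockout LCWE hearts, against 40.5, 162 and 77.2 CPM in knockout PBS hearts, with a fold of 1.16 ± 0.41 and an adjusted p of 0.101 in edgeR. DESeq2 called both higher, with adjusted p of 0.0254 for Col6a1 and 0.0287 for Col6a2. For both genes knockout PBS replicate 2 lay above knockout LCWE replicates 4 and 5. Col6a3, the large chain of the same filaments, stood at 135, 146, 116, 42.9 and 67.7 CPM in knockout LCWE hearts, against 6.44, 95.2 and 41.6 CPM in knockout PBS hearts. Knockout PBS replicate 1 was far below every other library for this gene, and the fold of 1.09 ± 0.54 had an adjusted p of 0.236 in edgeR.

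Col15a1 and Col18a1 are multiplexins, which tie basement membranes to the fibres beside them, and a piece cut from the Col18a1 product, endostatin, restrains vessel growth. Col15a1 stood at 273, 281, 240.4, 56.6 and 118 CPM in knockout LCWE hearts, against 7.002, 183 and 44.6 CPM in knockout PBS hearts. Knockout PBS replicates 1 and 3 lay below all knockout LCWE libraries, while replicate 2 lay among them. The log2 fold of 1.31 ± 0.68 had an adjusted p of 0.256 in edgeR. Within sample numbers from 100 to under 150, with 1 knockout PBS library, it was 5.23, and outside them it was -0.38. Col18a1 stood at 28.3 ± 11.4 CPM in knockout LCWE and 19.1 ± 11.8 CPM in knockout PBS hearts (SD, n = 5 and 3), with a fold of 0.56 ± 0.42. Col14a1, which coats type I fibrils, stood at 37.9, 38.6, 29.97, 31.3 and 18.7 CPM in knockout LCWE hearts, against 5.39, 28.0 and 11.7 CPM in knockout PBS hearts. Its fold of 1.06 ± 0.33 had an adjusted p of 0.0746 in edgeR and of 0.0206 in DESeq2, and knockout PBS replicate 2 lay above knockout LCWE replicate 5.

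**Figure D4:**
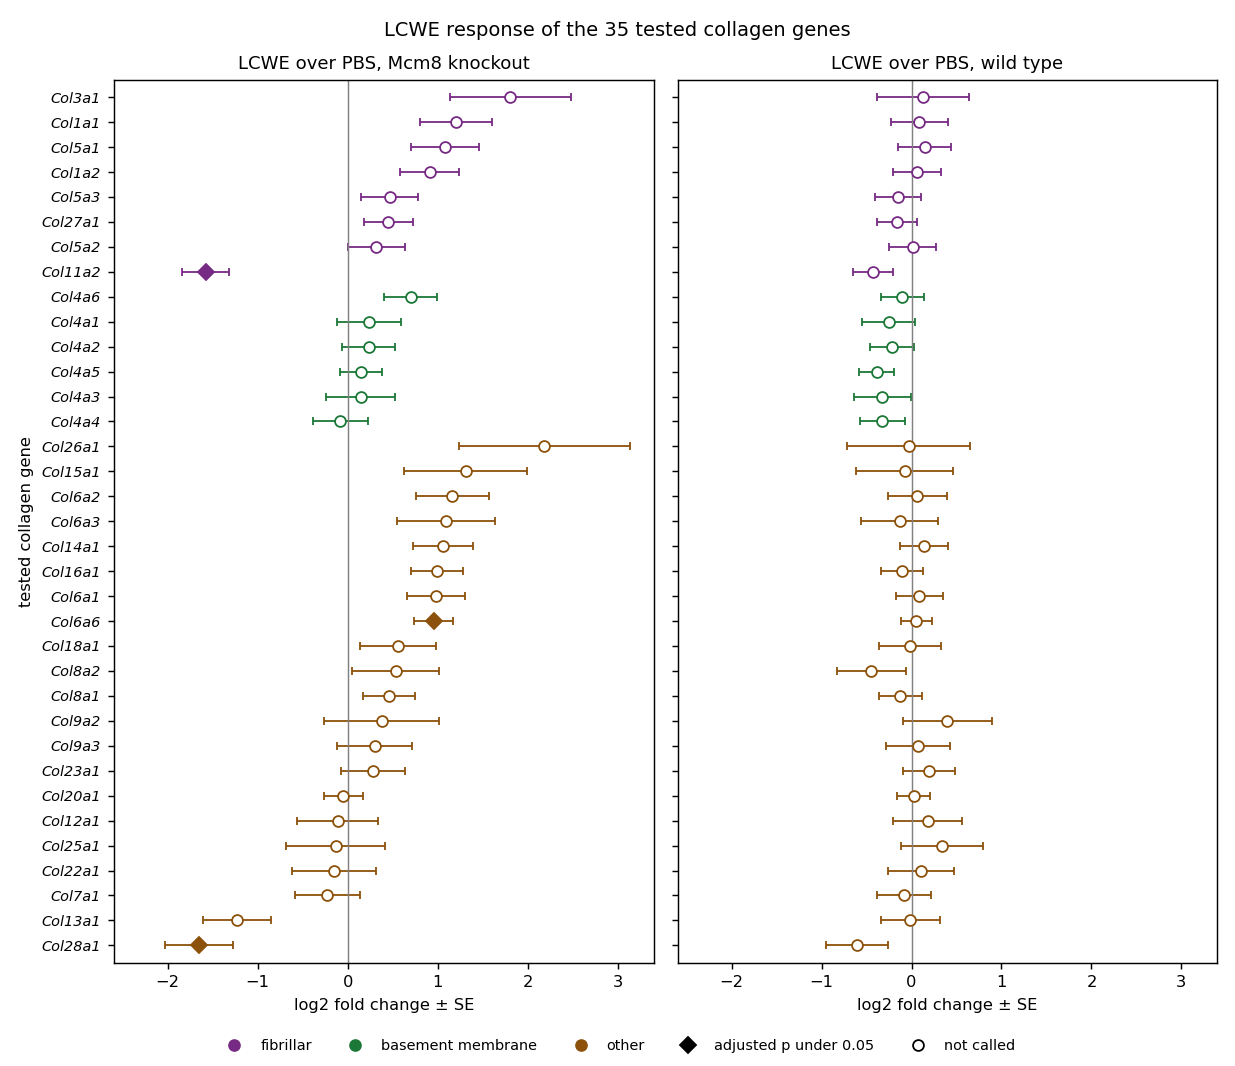
Log2 fold change with SE of LCWE over PBS for the 35 tested collagens, in knockout hearts on the left and wild-type hearts on the right, coloured by class, with filled diamonds for an adjusted p under 0.05. Col6a6, Col11a2 and Col28a1 carry the only diamonds on the left, and all wild-type folds lie between -0.61 and 0.40 with no diamond.

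In wild-type hearts LCWE gave no called collagen. The test called 0 of 35 with edgeR and 0 of 44 with DESeq2, none had an unadjusted p under 0.05, and of all genes 0% were called and 6.24% had an unadjusted p under 0.05. The folds ran from -0.61 for Col28a1 to 0.40 and had a median of -0.02, with 16 above 0 and 19 below. Col3a1 had a fold of 0.13 ± 0.52, Col1a1 0.09 ± 0.31, Col6a1 0.09 ± 0.26 and Col15a1 -0.08 ± 0.53. With standard errors of that size, moderate differences were not detectable in these libraries.

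In PBS hearts the knockout differed from wild type in 1 called collagen of 35, against 0.601% of all genes, of which 0.524% were higher and 0.0769% lower. DESeq2 called 1 collagen higher and 1 lower, and 4.94% of all genes. Col28a1 rose, with 9.45, 2.61 and 11.7 CPM in knockout PBS hearts, against 2.84, 2.93, 2.89, 1.80 and 1.19 CPM in wild-type PBS hearts. Only replicates 1 and 3 lay above the wild-type range. The log2 fold was 1.76 ± 0.38, with an adjusted p of 0.0468 in edgeR. The call was lost without any of 14 single libraries, at 0.0501 to 0.413, and with replicate 2 as the single knockout PBS library the fold was 0.16. Col28a1 lay at 1.70 within sample numbers from 100 to under 150 and at 2.24 outside them, called within the range alone. The collagen median was -0.42 on the log2 scale, with 9 above 0 and 26 below, beside 0.00 for all genes, and 13 collagens (37.1%) against 19.7% of all genes had an unadjusted p under 0.05. The fold was -1.47 ± 0.66 for Col3a1 (adjusted p 0.228 in edgeR), -0.95 ± 0.39 for Col1a1 and -0.72 ± 0.22 for Col6a6 (adjusted p 0.0882). Col6a6 and Col6a2 were the collagens whose knockout PBS libraries all lay below the wild-type PBS libraries, in a comparison in which 7.72% of all genes had groups that did not overlap. Without knockout PBS replicate 2, 14 collagens were called (3 higher and 11 lower) with 17.9% of all genes, and with sample numbers from 100 to under 150 alone 18 were called (3 higher and 15 lower) with 25.2% of all genes. This comparison and that of LCWE in the knockout share the 3 knockout PBS libraries.

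After LCWE, knockout and wild-type hearts gave 0 called collagens of 35 by edgeR and 0 by DESeq2, with 1 (2.86%) at an unadjusted p under 0.05, Col28a1 at a fold of 0.72 ± 0.34. Of all genes 0.00699% were called, and 5.55% had an unadjusted p under 0.05. The folds ran from -0.63 to 0.72 with a median of 0.16 and 27 above 0. Col3a1 averaged 515 ± 288 CPM in knockout LCWE and 446 ± 224 CPM in wild-type LCWE hearts (SD, n = 5 and 6). The corresponding means of Col1a1 were 226 ± 94.6 and 201 ± 84.2 CPM, and those of Col4a1 were 997 ± 459.5 and 844 ± 282 CPM. The spread within each group exceeded the difference of the means for each of these genes.

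The interaction, which tests whether LCWE acted differently in the knockout and in wild type, called 0 of 35 collagens with edgeR and 0 with DESeq2, beside 0% of all genes with edgeR and 0.0151% with DESeq2. At an unadjusted p under 0.05 it held 9 collagens (25.7%) against 8.01% of all genes, and the collagen median was 0.58 on the log2 scale, beside -0.02 for all genes. Thus the calls in knockout hearts were not shown to differ from the wild-type response. For Col11a2 the interaction was -1.15 ± 0.35, with an adjusted p of 0.527 in edgeR. Without knockout PBS replicate 2 the interaction called 4 collagens and 3.31% of all genes, and with sample numbers from 100 to under 150 alone 17 collagens and 13.8%.

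The number of collagens called for LCWE in the knockout changed with single libraries of both knockout groups. Without knockout LCWE replicates 1, 3 or 5 it was 1 in each case, against 3 with all libraries. Of all genes 0.238%, 0.224% and 0.133% were called in those fits. Without knockout PBS replicate 2, LCWE in the knockout called 12 collagens as higher and 3 as lower, and 20.2% of all genes. Without knockout PBS replicate 1 it called 0 collagens, and 0.00690% of all genes. Using libraries numbered from 100 to under 150 alone, which also leaves out knockout LCWE replicates 4 and 5, and where knockout PBS is represented by replicate 1 and is assumed to vary like the other groups, 16 collagens were called higher and 4 lower among 35, with 27.6% of all genes called. Among them Col3a1 had a fold of 4.03 and Col15a1 of 5.23. With the other libraries alone, 0 of 32 collagens were called, beside 0.148% of all genes. The folds were then 0.07 for Col3a1 and -0.38 for Col15a1. With the number range from 100 to under 150 as a covariate the called collagens were again Col6a6, Col11a2 and Col28a1, beside 5.6% of all genes. With 3 ranges (under 100, 100 to under 200, and 200 and above) Col28a1 had an adjusted p of 0.0631 in edgeR and was not called. Col6a6, Col11a2 and Col28a1 kept the sign of their fold in all 30 alternatives run, and were called in 22, 26 and 21 of them. Among these, each fit that left out 1 wild-type library kept 1 higher and 2 lower calls. Wild-type libraries enter the shared spread but not this fold, so the tally overstates how stable the calls were.

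**Figure D5:**
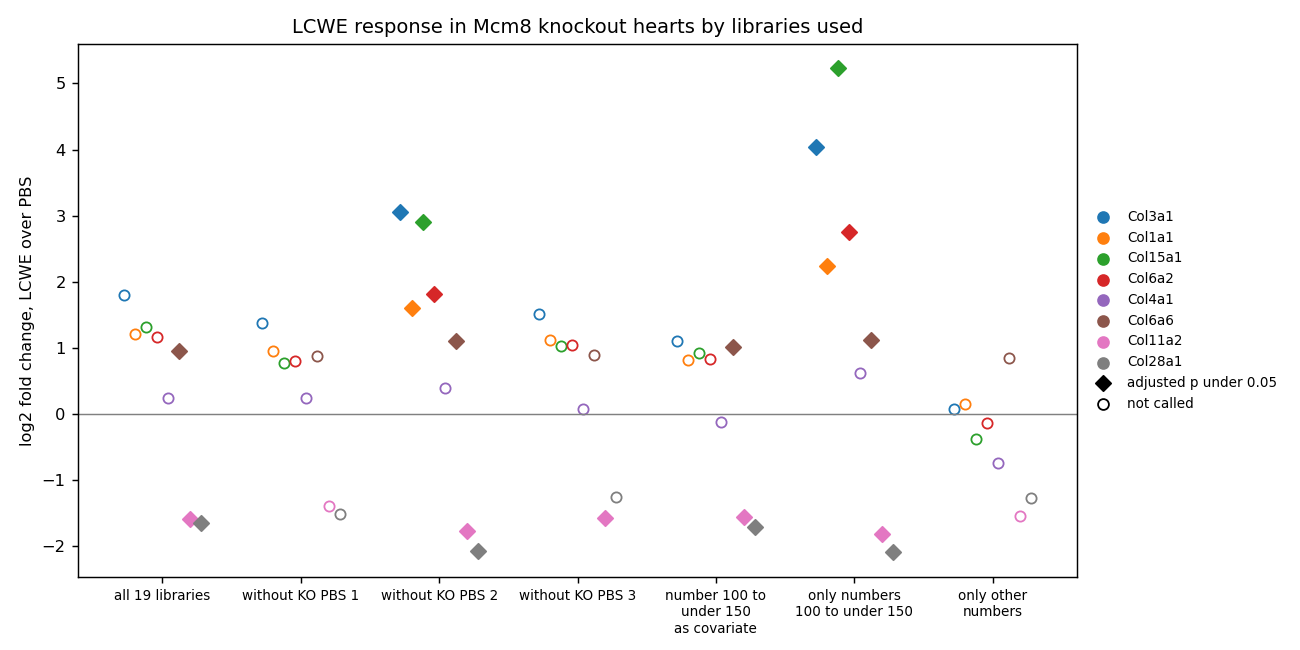
Log2 fold change of LCWE over PBS in knockout hearts for 8 collagens, by which libraries entered the fit or which covariate was added, with filled diamonds for an adjusted p under 0.05. Col3a1 runs from 0.07 with only other sample numbers to 4.03 with only sample numbers from 100 to under 150, while Col6a6 stays between 0.85 and 1.12.

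Some markers of other kinds moved with knockout PBS replicates 1 and 3 and knockout LCWE replicates 4 and 5, and others did not. The cardiac myosin gene Myh7, a marker of fetal or loaded heart muscle, lay at 14213 and 13251 CPM in knockout PBS replicates 1 and 3 and at 16702 and 20425 CPM in knockout LCWE replicates 4 and 5, and between 463.5 and 3216 CPM in the other 15 libraries. Those 4 libraries had the lowest fibrillar sums of their groups. For LCWE in the knockout, edgeR called 2.90% of all genes, 0.818% as higher. The marker lists below hold 8 to 10 tested genes, too few for 0 or 1 call to stand apart from that share. Of the 10 cardiomyocyte markers 1 was called, Actc1, the cardiac actin gene, with 16718, 17918, 18380, 9091 and 11632 CPM in knockout LCWE hearts, against 4530 and 6921 CPM in knockout PBS replicates 1 and 3 and 11278 CPM in replicate 2. It rose by 0.96 ± 0.25, with an adjusted p of 0.0444 in edgeR, and the sum of the list was 90640 to 120000 CPM in knockout LCWE and 84930 to 106000 CPM in knockout PBS hearts. Myl7, a myosin light chain gene of atrial muscle, lay at 82.6 and 40.8 CPM in knockout LCWE replicates 2 and 4 and at 28.5 CPM in knockout PBS replicate 2, against 0.210 and 0.226 CPM in knockout PBS replicates 1 and 3. The fibroblast list had 1 of 10 members called in the knockout after LCWE, and its summed level was 2891 to 3945 CPM in knockout LCWE and 2890 to 3547 CPM in knockout PBS hearts, with no member at 0 counts. Its members did not move together: in knockout PBS replicates 1 and 3 the receptor gene Pdgfra lay at 62.0 and 52.1 CPM, against 59.3 CPM in replicate 2. The proteoglycan gene Lum lay at 16.7 and 27.5 CPM there, against 78.9 CPM in replicate 2, and Dcn at 681 and 538 CPM, against 417 CPM. The activated fibroblast list, 0 of 8 tested members called, summed to 177 to 869 CPM in knockout LCWE and 127 to 196 CPM in knockout PBS hearts. The leukocyte list had 3 of 9 tested members called higher and summed to 302 to 928 CPM in knockout LCWE and 127 to 305 CPM in knockout PBS hearts. The endothelial and mural lists, cells that make type IV collagen, had 0 of 10 members called each in that comparison. Their sums were 1941 to 3140 and 3819 to 5227 CPM in knockout LCWE hearts, against 2695 to 2923 and 4024 to 6368 CPM in knockout PBS hearts. The part of muscle state, atrial tissue, fibroblast state and leukocytes in the collagen levels was not tested. Xist, which marks female tissue, was above 100 CPM in 1 of 5 knockout LCWE, 2 of 3 knockout PBS, 5 of 6 wild-type LCWE and 5 of 5 wild-type PBS libraries. Among the other 4 knockout LCWE libraries, the Y-linked gene Ddx3y was above 10 CPM in 3, so 1 library had neither marker. With Xist as a covariate, 5 collagens were called in the knockout after LCWE, 2 higher and 3 lower, with 8.73% of all genes.

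Genes that modify, process or bind collagen were counted by list, beside 2.90% of all genes called by edgeR for LCWE in knockout hearts. Lists of this size are too short for 0 or 1 call to stand apart from that share. In knockout hearts after LCWE, 1 of 21 tested genes of chain modification and folding was called lower, and 1 of 12 fibril partners was called higher. The 12 genes of processing and crosslinking, 9 collagen receptors, 18 genes of TGF-beta signalling and 10 basement membrane partners had 0 calls in edgeR, with 3, 2, 4 and 0 at an unadjusted p under 0.05. That level was passed by 38.1% of the folding genes and 41.7% of the fibril partners, beside 23.4% of all genes, and uncalled folds ran from -1.55 in TGF-beta signalling to 2.11 among the receptors. P4ha2, a catalytic subunit of the prolyl hydroxylase that stabilises the helix, stood at 35.7, 61.3, 36.6, 46.4 and 39.0 CPM in knockout LCWE hearts, against 87.7, 72.8 and 83.5 CPM in knockout PBS hearts. The groups did not overlap, as for 8.61% of all genes in this comparison. P4ha2 fell by 0.89 on the log2 scale (SE 0.23), with an adjusted p of 0.0431 in edgeR. Dpt, dermatopontin, a small protein that aids fibril assembly and is also on the fibroblast list, stood at 128, 149, 114, 122 and 69.5 CPM in knockout LCWE hearts, against 35.4, 92.2 and 48.3 CPM in knockout PBS hearts. It rose by 0.99 ± 0.26, with an adjusted p of 0.0457 in edgeR, and knockout PBS replicate 2 overlapped the LCWE group. In the other 4 comparisons 0 members of these 6 lists were called by edgeR.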

How the data were processed

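Bulk RNA from mouse hearts was sequenced in 19 libraries, made with a whole-transcriptome preamplification kit per the labels' protocols. The deposited values are raw counts per gene symbol, and the submitters' processing notes name STAR 2.7.8a, limma 3.36.160 and GRCm38 without saying what each did. Counter, annotation and strand setting are not named. Total counts ran from 11853233 to 16145911, which sets the counting precision, and no 2 libraries of a group agreed within sampling noise.

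Counts were tested with edgeR 4.0.16 in R 4.3.3 (quasi-likelihood, robust, TMM scaling, filterByExpr with a minimum count of 10 and total of 15). All 4 groups shared 1 model, with Benjamini-Hochberg adjustment over 14301 genes and a threshold of 0.05. The procedure was tested on simulated data that held no sets of libraries and no outlying libraries. That simulation therefore does not cover these features of the data. DESeq2 1.42.0, other scaling, filters, sample subsets, covariates and leaving out each library were alternatives. Correlations used log2 CPM (prior count 2, computed here) with 100000 permutations, and the Col1a1 to Col3a1 ratio an exact permutation test. Described in full were collagens called in any comparison and the 4 fibrillar, 4 basement membrane and 6 other collagens with the highest mean CPM. The collagens, lists and tests were chosen with earlier results of these data known, and the range from 100 to under 150 after the levels were seen. Promoters come from RefSeq for GRCm38.p6, with a window for 35 of the 44 collagens. Gene positions and exon lengths come from GENCODE M21.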

Additional observations from a re-analysis of the deposited data

Results flagged for a closer look

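Of 66 groups of values examined for a sample far from the others, 1 was picked out. Col4a5, the X-linked type IV chain, had 40.59 CPM in knockout LCWE replicate 4, while the other 4 knockout LCWE libraries lay between 59.6 and 67.01 CPM. Its distance to the nearest of the others was 0.766 of the range of the group. Chance picks out about 1 in 20 such groups.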

How the results depend on the processing

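For LCWE in the knockout (3 called), the alternatives gave 0 with only the groups compared, 20 with sample numbers 100 to under 200, 12 with DESeq2, 20 with numbers 100 to under 150, 0 with the other numbers, 0 without both knockout PBS replicates 1 and 3, and 5 with Xist as a covariate. Leaving out 1 library gave 0 to 15. For the knockout under PBS (1 called) the same settings gave 0, 16, 2, 18, 0, 0 and 0, the number range as a covariate gave 2 in either form, and leaving out 1 library gave 0 to 14. For the interaction (0 called by edgeR, 9 at an unadjusted p under 0.05, 0 by DESeq2), numbers 100 to under 200 gave 15, numbers 100 to under 150 gave 17, and leaving out 1 library gave 0 to 4. LCWE in wild type and knockout under LCWE gave 0 collagens in every alternative run. With Xist as a covariate, LCWE in the knockout called 1249 of all genes and the knockout under PBS 0. Over all genes, LCWE in the knockout called 415, with 1 to 2935 when 1 library was left out, 1253 with DESeq2, 0 with only the groups compared, 4001 with numbers 100 to under 200 and 4046 with numbers 100 to under 150. The knockout under PBS called 86, with 0 to 2606, 701, 1, 3985 and 3695 in the same settings. LCWE in wild type called 0 genes, 1221 with numbers 100 to under 200, 451 with numbers 100 to under 150 and 1 with DESeq2.

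The log2 ratio of Col1a1 to Col3a1 differed by -1.36 to -0.56 for LCWE in the knockout, by -0.1073 to 0.0708 for LCWE in wild type, by 0.56 to 1.36 for knockout under PBS and by -0.106 to 0.1177 for knockout under LCWE when 1 library was left out, and the last was -0.0438 with numbers 100 to under 200. Col5a1 with Col5a2 had an r of 0.6676 outside the range and no longer passed. The cause of these shifts was not tested. The ranges 100 to under 150 and outside it, the joint omission and the Xist covariate were chosen after seeing the data. No paired analysis was possible because no sample number is shared between groups, so number ranges entered as covariates.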
